A study of Homo sapiens with 3 samples.

Results

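The ERBB receptors and their ligands were followed in 3 RNA-seq libraries of teratoma grown from H1, an established human embryonic stem cell line. The set holds 10 genes of 27307 in the deposited tables: the receptors EGFR, ERBB2, ERBB3 and ERBB4, and the ligands NRG1, NRG2, NRG3, NRG4, EGF and AREG. They were picked by gene symbol as members of the EGF family, and each symbol was represented by its transcript entry with the highest mean level. A teratoma is a tumour in which pluripotent cells form tissues of all germ layers. Per the labels, 1000000 cells were injected under the skin of SCID-beige mice, which lack functional B and T cells, and tumours were collected 3 to 4 weeks later. The libraries, named teratomas 1, 2 and 3 by their replicate number, make up 1 group with no untreated or other comparison group. Whether they derive from separate mice or tumours is not stated.

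ERBB proteins are receptor tyrosine kinases that act in pairs. EGFR binds EGF and amphiregulin (the product of AREG), ERBB3 binds the neuregulins NRG1 and NRG2, and ERBB4 binds all 4 neuregulins. ERBB2 has no known ligand and serves as the partner of the other receptors, while ERBB3 has an impaired kinase and signals mainly through its partner. In development, NRG1 on axons sustains Schwann cells through ERBB2 and ERBB3, neuregulins and ERBB4 act in the heart and in interneurons of the brain, and EGFR drives growth of epithelia.

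Library totals, derived from the deposited read counts, lengths and RPKM values, were 46243199, 45815402 and 43605458 reads in teratomas 1, 2 and 3. Levels are given in RPKM (the reads of an entry divided by its length in kilobases and by the library's reads in units of 1000000), a scale on which genes of different length can be set side by side. A mean is given with its SD over the 3 libraries (n = 3), and ranges in brackets are exact Poisson 95% intervals of the reads, which cover counting error only. Teratoma 3 stood apart from the other libraries: per gene with at least 20 reads, a chi-square statistic of their read counts was 57.7 between teratomas 1 and 2, 313 between 1 and 3 and 233 between 2 and 3. Markers of the labelled tissue were present for each germ layer, with all 10 neuron genes, all 6 fibroblast genes and all 5 endoderm genes at 1 RPKM or more in every library. Other lists were less complete, with 2 of 5 endothelium genes and 1 of 5 cardiac muscle genes at that level. Reads of the host mouse that align to the human genome may be part of any value, and their share was not tested.

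Of the 10 genes, 7 had at least 1 RPKM in all 3 libraries, namely the 4 receptors, NRG1, NRG2 and NRG3. This threshold was met by 52.7% of all genes. NRG4 and EGF stayed under 1 RPKM in all 3 libraries, as 39.5% of all genes did, and AREG passed 1 RPKM in teratoma 2 only. Of the receptors, ERBB2 ranked at percentile 94.9 of all genes by mean level, ERBB3 at 89.0, EGFR at 67.1 and ERBB4 at 54.5. Among the ligands NRG3 ranked highest, at percentile 59.8, which is above ERBB4.

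**Figure D1:**
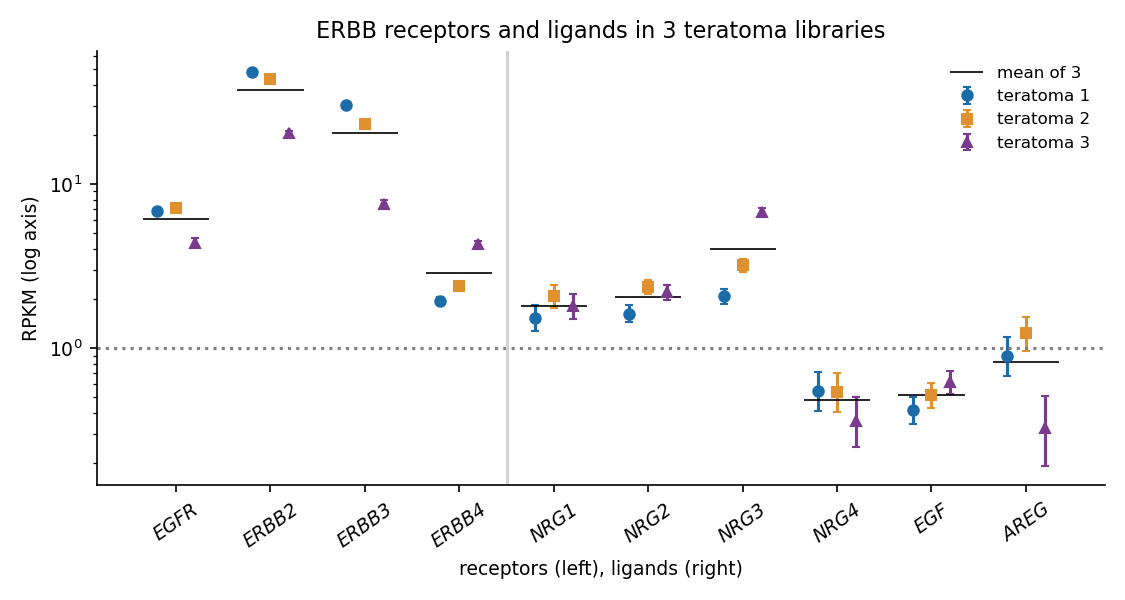
RPKM on a log axis of each receptor (left of the grey line) and ligand (right) in teratomas 1 (circles), 2 (squares) and 3 (triangles), with 95% Poisson intervals of the reads as bars, the mean of the 3 libraries as a black line and 1 RPKM as a dotted line. ERBB2 and ERBB3 are lowest in teratoma 3, at 20.4 and 7.59 RPKM, where ERBB4 and NRG3 are highest, at 4.31 and 6.76 RPKM.

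The receptors share a short stretch of the kinase domain, the catalytic loop, and its coding sequence is shown because the most abundant receptors differ in it. The stretches were read from GENCODE 29 transcripts that correspond to the RefSeq entries NM_005228, NM_004448, NM_001982 and NM_005235. Capitals mark the codon of the catalytic aspartate, which ERBB3 lacks.
EGFR: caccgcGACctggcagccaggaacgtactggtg
ERBB2: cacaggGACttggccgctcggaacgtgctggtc
ERBB3: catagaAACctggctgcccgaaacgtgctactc
ERBB4: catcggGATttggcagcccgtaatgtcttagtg
Over these 33 bases, ERBB2 differed from EGFR at 8 positions, ERBB4 at 10 and ERBB3 at 11. Within the marked codon the substitution in ERBB3 was G7A, counted from 1 at the first base shown, with the base of EGFR first. ERBB4 had C9T in that codon, at its last base. ERBB3, the member without the aspartate codon, was behind only ERBB2 in RPKM in every library.

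ERBB2, the receptor without a ligand, had the highest level of the family in every library. It stood at 48.2 RPKM (47.3 to 49.2) in teratoma 1, 43.8 (43.0 to 44.7) in teratoma 2 and 20.4 (19.8 to 21.0) in teratoma 3, a mean of 37.5 ± 14.96. Teratomas 1 and 2 lay close together, and teratoma 3 was 2.36-fold below teratoma 1. All 6 entries of the gene showed this pattern, with teratoma 1 between 2.12 and 2.36-fold above teratoma 3.

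ERBB3, the neuregulin receptor of Schwann cells and many epithelia, differed most between libraries. Its level was 30.5 RPKM (29.9 to 31.2) in teratoma 1, 23.1 (22.6 to 23.7) in teratoma 2 and 7.59 (7.26 to 7.94) in teratoma 3, with a mean of 20.4 ± 11.7. The 3 intervals lay apart, and teratoma 1 exceeded teratoma 3 4.02-fold. A short entry of ERBB3 of 1050 bases (NM_001005915), a form without the kinase domain, stood at 12.1, 9.69 and 3.41 RPKM. Since both entries share their first exons, the values of the short entry do not show that a separate short transcript was made.

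EGFR, the receptor of EGF and amphiregulin, varied less. It stood at 6.82 RPKM (6.50 to 7.15) in teratoma 1, 7.10 (6.77 to 7.43) in teratoma 2 and 4.39 (4.13 to 4.66) in teratoma 3, a mean of 6.10 ± 1.49. Teratomas 1 and 2 could not be told apart by their counting intervals, and both lay above teratoma 3. The entry with the highest mean (NM_001346941) is 801 bases shorter than the full-length entry NM_005228. The full-length entry held 137, 149 and 118 more reads in teratomas 1, 2 and 3, equal to 3.70, 4.06 and 3.38 RPKM over those 801 bases. Reads thus covered the stretch that the shorter entry lacks, and the choice of entry says nothing of which form was made. The 3 truncated EGFR entries that end before the kinase domain (NM_201282, NM_201283 and NM_201284) had means of 4.37, 3.99 and 3.41 RPKM from reads they can share with the full-length entry.

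ERBB4, a neuregulin receptor of heart, interneurons and some epithelia, was the lowest receptor on average and ran opposite to the others. It rested on 1062, 1298 and 2231 reads, or 1.93 RPKM (1.82 to 2.05), 2.39 (2.26 to 2.52) and 4.31 (4.13 to 4.49) in teratomas 1, 2 and 3, with a mean of 2.88 ± 1.26. Here teratoma 3 was highest, 2.23-fold above teratoma 1, and no intervals overlapped. The 2 entries of ERBB4 differ in length by 48 bases. ERBB4 is known to have forms with and without a short cytoplasmic exon that binds PI3-kinase. Their counts differed by 0, 2 and 0 reads in teratomas 1, 2 and 3. No source used here says whether reads across splice junctions were placed, so the ratio of these forms was not measured.

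The order ERBB2, ERBB3, EGFR and ERBB4 held in each of the 3 libraries, but the ratios between them differed in teratoma 3. ERBB2 exceeded ERBB3 1.58-fold in teratoma 1, 1.90-fold in teratoma 2 and 2.69-fold in teratoma 3. ERBB3 exceeded ERBB4 15.8-fold, 9.69-fold and 1.76-fold. EGFR exceeded ERBB4 3.53-fold and 2.97-fold in teratomas 1 and 2, and in teratoma 3 their ratio was 1.02 with overlapping intervals. On the log2(RPKM + 1) scale the mean difference was 0.95 ± 0.34 for ERBB2 minus ERBB3, 1.42 ± 0.68 for ERBB3 minus EGFR and 0.90 ± 0.76 for EGFR minus ERBB4 (n = 3). All 6 receptor pairs kept 1 sign in 3 of 3 libraries. The exact two-sided sign-flip permutation p was 0.25 for each pair, and still 0.25 after Benjamini-Hochberg adjustment for 6 pairs. That is the smallest p that 3 libraries allow, so no pair could pass 0.05. When RPKM was summed over all entries of a gene, which counts shared exons repeatedly, EGFR with its 9 entries lay above ERBB3 with its 2 entries (ERBB3 minus EGFR, -0.75). With the longest entry of each gene, EGFR lay just below ERBB4 in teratoma 3 (4.263 against 4.291 RPKM). EGFR was then above ERBB4 in 2 of 3 libraries, as it was with entries averaged.

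Summed over the 4 receptors, RPKM came to 87.5, 76.5 and 36.7 in teratomas 1, 2 and 3. ERBB2 made up 55.1%, 57.3% and 55.6% of that sum, a nearly constant share. The share of ERBB3 was 34.9%, 30.3% and 20.7%, and that of EGFR was 7.79%, 9.28% and 12.0%. The share of ERBB4 was 2.21% in teratoma 1, 3.12% in teratoma 2 and 11.7% in teratoma 3. Teratoma 3 thus had the smallest receptor sum and the largest shares of EGFR and ERBB4.

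**Figure D2:**
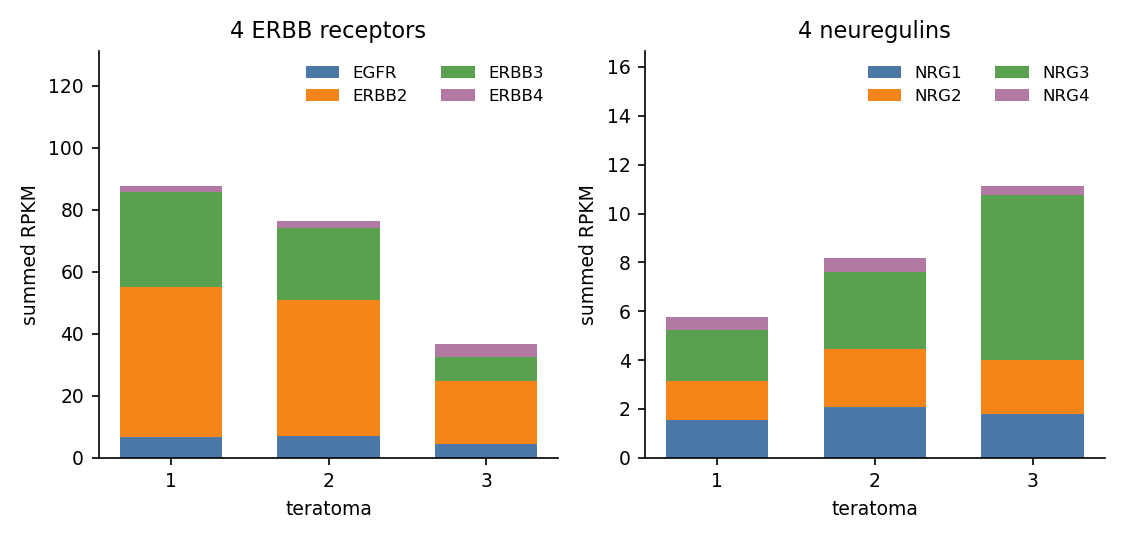
Summed RPKM of the 4 receptors (left) and the 4 neuregulins (right) in teratomas 1, 2 and 3, with each gene as a coloured segment and axes that start at 0. The receptor sum is 87.5, 76.5 and 36.7 and the neuregulin sum is 5.77, 8.17 and 11.1, so the sums run in opposite directions across the libraries.

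The ligands were low. NRG3, a neuregulin made largely by neurons that binds ERBB4, led them with 2.08 RPKM (1.86 to 2.30) in teratoma 1, 3.19 (2.93 to 3.47) in teratoma 2 and 6.76 (6.37 to 7.18) in teratoma 3, a mean of 4.01 ± 2.45. The 3 intervals lay apart and teratoma 3 exceeded teratoma 1 3.26-fold. All 3 entries of NRG3 were highest in teratoma 3, by 3.26 to 3.43-fold over teratoma 1. NRG3 and its receptor ERBB4 were thus ordered alike, lowest in teratoma 1 and highest in teratoma 3. EGF, a ligand of EGFR, had that order too (0.419, 0.517 and 0.621 RPKM). Of the other ERBB4 ligands, NRG4 was lowest in teratoma 3, NRG2 was highest in teratoma 2 and NRG1 depended on the entry. The share of all genes with this order was not counted.

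Promoter sequences of ERBB4 and NRG3 are shown because this receptor and this ligand were both highest in teratoma 3 on 2231 and 1088 reads there. They run from 250 bases before to 50 bases after the transcript start in RefSeq, build GRCh38.p14, and for NRG3 the more upstream of the listed starts is given. ERBB4 lies at chr2:212538753-212539052 on the minus strand and NRG3 at chr10:81874944-81875243 on the plus strand. Capitals mark GGGCGG, the GC box, on either strand, and in ERBB4 also the SOX core ACAAT on either strand.
ERBB4: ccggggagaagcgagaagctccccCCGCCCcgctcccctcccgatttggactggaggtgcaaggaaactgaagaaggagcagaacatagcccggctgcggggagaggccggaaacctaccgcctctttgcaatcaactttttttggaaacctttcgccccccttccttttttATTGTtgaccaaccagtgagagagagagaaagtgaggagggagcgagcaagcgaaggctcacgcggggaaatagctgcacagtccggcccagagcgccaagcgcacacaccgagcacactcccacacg
NRG3: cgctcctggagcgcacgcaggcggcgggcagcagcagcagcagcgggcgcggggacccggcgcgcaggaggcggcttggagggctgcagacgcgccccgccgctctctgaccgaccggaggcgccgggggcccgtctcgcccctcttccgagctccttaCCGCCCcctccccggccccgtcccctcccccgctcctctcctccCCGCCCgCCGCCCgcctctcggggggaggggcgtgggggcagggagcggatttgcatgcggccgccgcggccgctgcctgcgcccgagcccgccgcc
The GC content was 59% for ERBB4 and 81% for NRG3, with a median of 58.7% over all 35116 promoters listed. GGGCGG matched once in ERBB4 and 3 times in NRG3, and 45.0% of all promoters hold it. ACAAT matched once in ERBB4 and in no place in NRG3, against 27.4% of all promoters, and the AP-2 motif GCCNNNGGC matched once in NRG3 alone, against 23.2%. The TATA box TATAAA was in neither window and is held by 11.5% of promoters. The CCAAT box, spelled as its name, was in neither, against 34.6%. The E-box CANNTG was in neither, against 68.7%. Both strands were searched for each motif, and no matches of different motifs overlapped. Matches are descriptions of letters, not binding sites.

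NRG2, a neuregulin that binds ERBB3 and ERBB4, stood at 1.62, 2.37 and 2.18 RPKM in teratomas 1, 2 and 3 (mean 2.06 ± 0.389), with teratomas 2 and 3 overlapping. NRG4, a short neuregulin that binds ERBB4, stood at 0.545, 0.540 and 0.358 RPKM on 55, 54 and 34 reads, and its counting intervals overlapped in all libraries. EGF, the founding ligand of EGFR, stood at 0.419, 0.517 and 0.621 RPKM on 108, 132 and 151 reads. The extremes of EGF lay apart by counting error but differed by only 0.19 on the log2(RPKM + 1) scale.

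AREG, an EGFR ligand made by epithelia, had the largest ratio between libraries among the ligands. It stood at 0.898 RPKM (0.673 to 1.17), 1.23 (0.964 to 1.55) and 0.324 (0.192 to 0.511) on 53, 72 and 18 reads. Teratoma 2 exceeded teratoma 3 3.81-fold, and teratomas 1 and 2 overlapped. The deposited tables list 2 genome placements for the AREG entry, so its reads could not be assigned to 1 copy. All 3 ligands under 1 RPKM on average lay well above the level of 3 reads, which for AREG was 0.051 to 0.054 RPKM.

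NRG1, the axonal neuregulin that binds ERBB3 and ERBB4, gave values that depended on the entry. Its entry with the highest mean (NM_001160005) stood at 1.53 RPKM (1.26 to 1.84), 2.07 (1.75 to 2.42) and 1.81 (1.51 to 2.15) in teratomas 1, 2 and 3, a mean of 1.80 ± 0.269 with overlapping intervals. Of the 23 NRG1 entries, however, 18 were highest in teratoma 3, and the ratio of teratoma 3 to teratoma 1 ran from 0.956 to 3.55. The following entries were chosen after their values were seen. NM_013959, the type III form with a membrane-anchored cysteine-rich domain that motor and sensory neurons make, stood at 1.01 RPKM (0.828 to 1.21), 1.22 (1.02 to 1.45) and 2.99 (2.67 to 3.35) on 110, 132 and 308 reads. NM_004495, a secreted form with an immunoglobulin-like domain, stood at 1.04 (0.824 to 1.29), 1.47 (1.22 to 1.77) and 1.00 (0.789 to 1.26) on 81, 114 and 74 reads. The ratio of teratoma 3 to teratoma 1 was 2.97 for the first and 0.969 for the second. Other entries with an immunoglobulin-like domain (NM_013956, NM_013957 and NM_013964) had ratios of 2.10, 2.10 and 2.08, so the values do not separate type III from immunoglobulin-type forms. Entries share exons, so each value mixes forms, and no entry was tested against another.

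**Figure D3:**
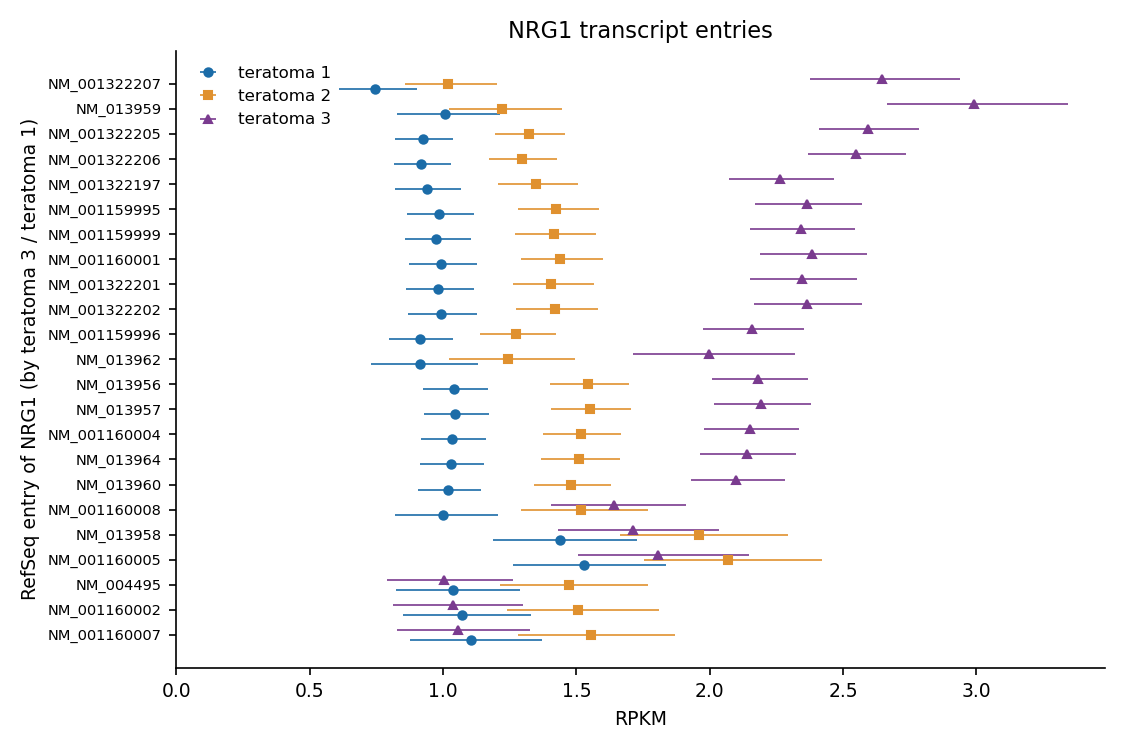
RPKM of the 23 RefSeq entries of NRG1 in teratomas 1 (circles), 2 (squares) and 3 (triangles), with 95% Poisson intervals of the reads as bars and entries sorted by the ratio of teratoma 3 to teratoma 1. The ratio runs from 0.956 at the bottom to 3.55 at the top, and NM_013959 in teratoma 3 has the highest value at 2.99 RPKM.

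By mean RPKM the ligands ranked NRG3, NRG2, NRG1, AREG, EGF and NRG4. Of the 15 ligand pairs, 12 kept 1 sign in 3 of 3 libraries. The remaining pairs were those among AREG, EGF and NRG4: AREG minus EGF was 0.23 ± 0.46 on the log2(RPKM + 1) scale, AREG minus NRG4 0.26 ± 0.29 and EGF minus NRG4 0.04 ± 0.20, so these neighbours did not differ beyond their spread. NRG2 minus NRG1 was 0.12 ± 0.07 and NRG3 minus NRG2 0.61 ± 0.59. The smallest exact two-sided sign-flip permutation p was 0.25, with an adjusted p of 0.313 over the 15 pairs, so no ligand pair passed either. The order of NRG1, NRG2 and NRG3 rested on the entry rule: with RPKM summed over entries NRG1, with 23 entries, lay above both (NRG3 minus NRG1, -1.67, and NRG2 minus NRG1, -1.64).

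Summed over the 4 neuregulins, RPKM was 5.77, 8.17 and 11.1 in teratomas 1, 2 and 3. NRG3 gave 36.0%, 39.1% and 60.9% of this sum. The receptor sum was 15.2 times the neuregulin sum in teratoma 1, 9.36 times in teratoma 2 and 3.30 times in teratoma 3. Because the receptor and neuregulin sums ran in opposite directions, their ratio necessarily differed between libraries more than either sum did.

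Between libraries, 3 of the 10 genes (ERBB2, ERBB3 and NRG3) differed by at least 1 on the log2(RPKM + 1) scale, a rule that 12.1% of all genes met. Their differences were 1.20, 1.87 and 1.34. Teratoma 3 was the lowest library for ERBB2 and ERBB3 and the highest for NRG3. Among all genes 3303 met the rule, of which 1930 (7.07% of all genes) were lowest and 1235 (4.52%) highest in teratoma 3. When genes averaging under 1 RPKM were set aside, 3 of 7 members and 20% of 15701 genes met the rule. By counting error alone, 8 of 10 members (all but NRG1 and NRG4) and 56.4% of all genes had intervals of the highest and the lowest library that lay apart. The median difference was 0.67 for the 10 members, 0.28 for all genes and 0.45 for the 15701 genes averaging 1 RPKM or more. None of the 10 differed by at least 2, as 1.52% of all genes did. Teratoma 3 decided these counts, for the members as for all genes: without it 0 of 10 members and 1.59% of all genes met the rule. Without teratoma 1 NRG3 no longer did, leaving 2 of 10 members beside 7.51% of all genes. With a pseudocount of 0.1 in place of 1, ERBB4 and AREG met it as well, making 5, while the share of all genes was 25.4%. No test was made of a difference between single libraries.

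**Figure D4:**
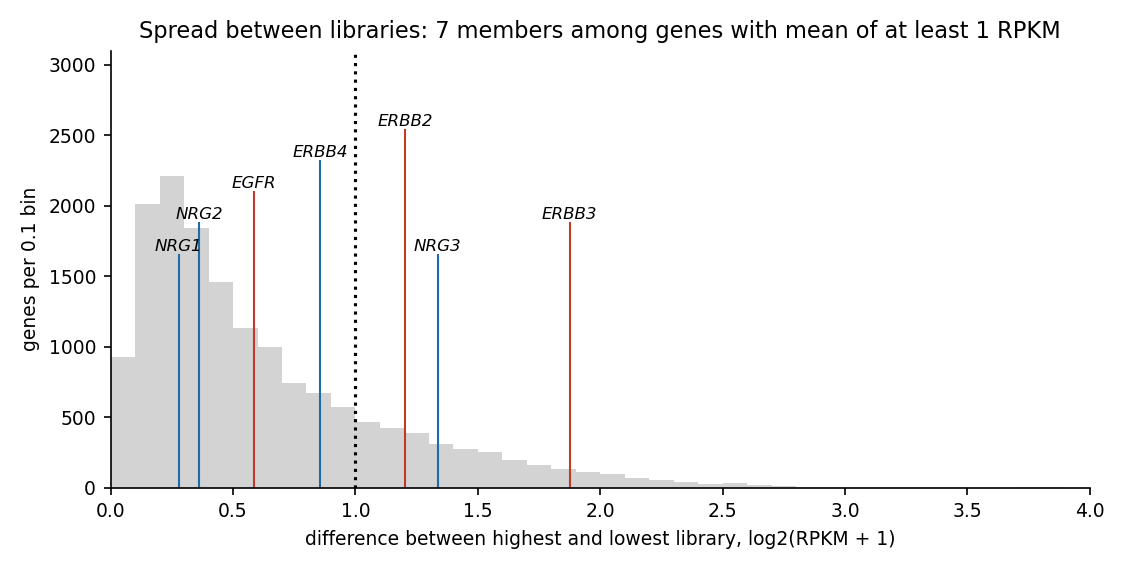
Histogram of the difference between the highest and the lowest library on the log2(RPKM + 1) scale for the 15701 genes averaging 1 RPKM or more, in bins of 0.1, with the 7 members of that level as vertical lines whose heights carry no value. Red lines mark members lowest in teratoma 3 and blue lines members lowest in teratoma 1, and ERBB2, NRG3 and ERBB3 lie to the right of the dotted line at 1, at 1.20, 1.34 and 1.87.

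Cell type markers moved across the same libraries. Simple epithelium genes were lowest in teratoma 3 in 6 of 6 cases, with a summed level of 762, 773 and 186 RPKM in teratomas 1, 2 and 3. Fibroblast genes were lowest there in 6 of 6 cases (1641, 1284 and 364) and endoderm genes in 5 of 5 (913, 3179 and 294). Neuron genes were highest in teratoma 3 in 10 of 10 cases, with sums of 743, 937 and 2495. The stratified epithelium list differed from the simple one, with sums of 16.5, 219 and 43.5, lowest in teratoma 1, and 2 of its 6 genes lowest in teratoma 3. Only IVL of this list was listed at 0 in any library, in teratoma 3. ERBB2, ERBB3 and EGFR were lowest in the library where simple epithelium, fibroblast and endoderm sums were lowest, and NRG3 and ERBB4 were highest where the neuron sum was highest. The part of these cell types in the values was not tested, and in bulk tissue fewer cells of a type and less RNA per cell cannot be told apart.

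ERBB3 is known as a receptor of the neural crest and of Schwann cells. The marker list of these cells was shortened after its values were seen, so its counts and sums do not cover the longer list. Of its 7 genes reported here, 5 had at least 1 RPKM in all libraries and 5 were lowest in teratoma 3, with sums of 80.3, 50.9 and 39.5 RPKM. SOX10, the master factor of glia of the crest, stood at 21.6, 11.3 and 3.99 RPKM. It was ordered like ERBB3, with teratoma 1 above teratoma 2 and teratoma 2 above teratoma 3. FOXD3 (6.28, 5.32 and 2.93), NGFR (34.3, 16.4 and 13.4), S100B (10.1, 4.71 and 3.84) and CDH19 (1.17, 0.660 and 0.244) of this list had that order too. TFAP2A (6.15, 11.3 and 12.1) and PMP2 (0.756, 1.28 and 3.05) of the crest list did not. Of the simple epithelium list, CDH1, an epithelial cadherin, had the same order at 65.6, 55.2 and 15.9 RPKM. So did EPCAM (82.9, 81.4 and 22.5), KRT18 (80.3, 78.5 and 16.7) and CLDN4 (93.0, 75.6 and 20.4), while KRT8 and KRT19 were highest in teratoma 2. Of the 6 fibroblast genes 5, COL1A1, COL1A2, DCN, LUM and PDGFRB, had the order of ERBB3 as well. On the log2(RPKM + 1) scale ERBB3 deviated from its own mean by 0.75, 0.37 and -1.12 in teratomas 1, 2 and 3. The average deviation was 0.76, 0.36 and -1.12 for the fibroblast list and 0.69, 0.63 and -1.33 for simple epithelium. For the crest list it was 0.31, -0.013 and -0.30, an average that includes TFAP2A and PMP2, both highest in teratoma 3. Which of these cell types the ERBB3 reads came from was not tested. For ERBB4, inhibitory neuron markers were highest in teratoma 3 in 5 of 6 cases with sums of 102, 83.8 and 161, and LHX6 of that list stood at 0.812, 0.459 and 0.344. Of the cardiac list 1 of 5 genes reached 1 RPKM in all libraries, and the summed level was 4.36, 3.08 and 3.25.

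**Figure D5:**
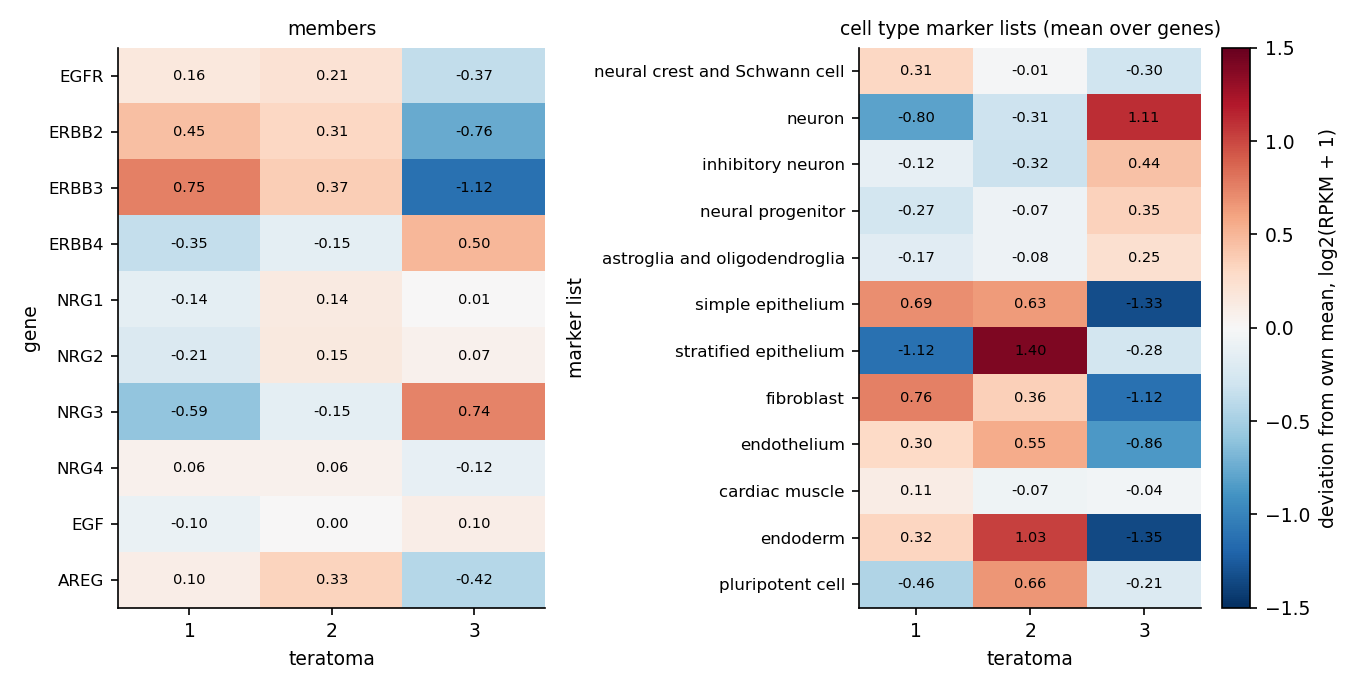
Deviation of each library from the gene's own mean over the 3 libraries on the log2(RPKM + 1) scale, for the 10 members (left) and averaged over the genes of 12 cell type marker lists (right), with red above and blue below the mean and the value in each cell. ERBB3, simple epithelium, fibroblast and endoderm are lowest in teratoma 3, and NRG3, ERBB4 and the neuron list are highest there.

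The genes whose profiles over the 3 libraries were most alike were found by the largest difference, in any library, between log2(RPKM + 1) values centred on each gene's mean, over the 9954 genes averaging 5 RPKM or more. For ERBB3 they were TNS3 (29.96, 23.1 and 7.58 RPKM), EPHB4 (47.2, 36.6 and 12.1) and PKDCC (54.0, 40.4 and 14.1), and 40 genes lay within 0.1 of its profile. For ERBB2 they were PLCD3, TSPAN15 and WASF2, with 133 genes within 0.1. For EGFR they were EIF3B, LRRC75A-AS1 and MOXD1, with 377 genes within 0.1. Over only 3 libraries many genes share a profile, so this likeness is a description.

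The other ligands of the family were sparse. HBEGF, an EGFR and ERBB4 ligand, was the 1 of 5 that reached 1 RPKM in all libraries, at 1.95, 2.28 and 5.77 RPKM in teratomas 1, 2 and 3. It was highest in teratoma 3, like NRG3 and unlike AREG. TGFA, an EGFR ligand of epithelia, stood at 1.24, 0.775 and 0.362, and BTC, EREG and EPGN were under 1 RPKM in every library, with means of 0.395 ± 0.188, 0.111 ± 0.0767 and 0.0664 ± 0.0254. The median level of these 5 genes was 0.395 RPKM, against 2.05 over all genes.

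Proteases that release ERBB ligands were present at moderate levels in every library. Of the 7 shedding proteases and partners 6 had at least 1 RPKM in all libraries, led by BACE1, which cleaves NRG1 (18.6 ± 2.10 RPKM), ADAM10 (16.5 ± 1.35) and ADAM17, the main sheddase of EGFR ligands (9.25 ± 0.736). These 3 varied little. The iRhom genes RHBDF1 (10.6, 8.31 and 3.05) and RHBDF2 (1.71, 2.09 and 0.393), which guide ADAM17 to the cell surface, were the 2 that met the rule of a difference of at least 1, both lowest in teratoma 3.

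All 10 adaptors and effectors had at least 1 RPKM in every library. They were led by the adaptor GRB2 (41.0 ± 4.84 RPKM), the phospholipase PLCG1 (34.5 ± 1.37) and the PI3-kinase subunit PIK3R3 (27.6 ± 11.5). SHC1, the broadly expressed SHC adaptor, stood at 27.3, 24.0 and 9.45 RPKM and was the 1 gene of the list that met the rule. SHC3, its neuronal relative, ran the other way at 4.66, 4.91 and 9.90, just short of the rule with a difference of 0.94.

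All 9 negative regulators also had at least 1 RPKM throughout. LRIG1, a membrane protein that promotes loss of ERBB receptors, led them at 35.6 ± 5.47 RPKM, followed by the feedback inhibitor ERRFI1 (21.3 ± 7.62) and the phosphatase PTPN12 (14.4 ± 0.601). The 2 that met the rule were LRIG3 and CBLC. LRIG3 stood at 14.1, 9.80 and 3.47 RPKM and the epithelial ubiquitin ligase CBLC at 6.03, 6.49 and 1.78, both lowest in teratoma 3. RNF41, the ubiquitin ligase of ERBB3, stood at 9.32, 9.81 and 12.2.

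Among 5 ERBB-binding proteins, the postsynaptic scaffold DLG4, which binds ERBB4, stood at 19.7, 23.6 and 55.5 RPKM and was highest in teratoma 3. MUC4, an epithelial mucin that binds ERBB2, stood at 1.34, 0.459 and 0.0814 on 245, 83 and 14 reads and was lowest there. Both met the rule of a difference of at least 1. TOB1 (17.0 ± 2.34), PA2G4, an ERBB3-binding protein (15.2 ± 0.752), and ERBIN, a scaffold that binds ERBB2 (10.7 ± 1.42), did not.

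Genes that respond to ERK, a kinase downstream of ERBB and of many other receptors, were detected in 10 of 10 cases, led by CCND1 (86.4 ± 29.5 RPKM), SPRY2 (22.8 ± 5.14) and PHLDA1 (18.0 ± 2.33). Of the 10, 9 were lowest in teratoma 3, and the share of all genes lowest there, whether or not they met the rule, was not counted. The 4 that met the rule were EGR1 (23.0, 11.8 and 7.13), FOS (19.4, 15.7 and 6.28), SPRY4 (7.67, 4.83 and 2.94) and ETV4 (11.9, 9.90 and 4.92). Over all 6 lists, 40 of 46 genes (87.0%, against 52.7% of all genes) had at least 1 RPKM in every library. The rule was met by 12 (26.1%, against 12.1% of all genes and 20% of those averaging 1 RPKM or more), 10 of them lowest and 2 highest in teratoma 3. Among all genes 3303 met it, 1930 of them lowest and 1235 highest in teratoma 3. Markers of simple epithelium and fibroblasts were lowest in the same library, and their part in the values of the 6 lists was not tested.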

How the data were processed

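RNA of 3 teratoma libraries was sequenced from polyadenylated RNA after NEBNext Ultra II preparation, per the labels' protocols. The submitters' processing notes name Bowtie2 and hg19; no source used here names the counting tool, read filters, strand setting or any removal of mouse reads. The deposited RPKM values equal the deposited read counts divided by length and by 1 total per library. The other deposited columns, length and genome placements, were used as description. Counts are raw reads per transcript entry; entries share reads, so each symbol kept the entry with the highest mean RPKM. The tables give no coordinates; promoters and GENCODE transcripts are of another build (GRCh38) and served for sequence only.

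A gene was called detected when each of the 3 libraries had 1 RPKM or more. Spread was the range of log2(RPKM + 1) with pseudocount 1, which understates low genes. For gene pairs, within-library differences went into an exact sign-flip permutation test (two-sided), adjusted by Benjamini-Hochberg. The range rule was tested on simulated data: 100 of 100 genes raised 4-fold and 100 of 100 lowered 4-fold were recovered, and 52 of 27107 unchanged genes were called. Counts were drawn as Poisson, and only genes averaging at least 5 RPKM were changed, a level that NRG3 (4.01) does not reach. The simulation thus holds counting error only, and its rates do not carry over to the larger spread between these libraries. The labels do not say whether libraries are separate animals, so p-values cover only within-library gene differences in these samples. The spread between the samples may be technical. Members and gene lists were chosen with earlier results of these data known. Named were all members, of each ERBB list the 3 genes with the highest mean, those under 1 RPKM throughout, those meeting the range rule and others listed there with a known tie to a member, and the 3 genes most alike to each member of at least 5 RPKM. The neural crest and Schwann cell list was shortened after its values were seen, as part of it is not reported here. ERBIN was matched by its older symbol ERBB2IP. Of 10 members 8 had a promoter entry. Alternatives changed detection, pseudocount, entry choice, scaling, filter, size and libraries used. Python 3.11.15, numpy 2.4.6, pandas 2.3.3, scipy 1.17.1 and matplotlib 3.10.9 were used.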

Additional observations from a re-analysis of the deposited data

How the results depend on the processing

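The mean difference of receptor pairs kept its sign in 59 of 60 alternative values and that of ligand pairs in 145 of 150. The exceptions with RPKM summed over entries were ERBB3 minus EGFR (-0.75), NRG3 minus NRG2 (-0.0274), NRG3 minus NRG1 (-1.67), NRG2 minus NRG1 (-1.64) and AREG minus EGF (-0.52); this setting counts a gene once per entry. With 1 library left out, EGF minus NRG4 ran from -0.073 (without teratoma 3) to 0.117 (without teratoma 1). EGFR minus ERBB4 kept a positive mean with the longest entry and with entries averaged, but was positive in only 2 of 3 libraries. Detection at 5 RPKM left 2 of 10 members (31.2% of all genes). Other settings gave from 6 members with the longest entry (52.1%) to 10 after rescaling to 1000000 per library (62.6%). That rescaling raised the median level in every library. The count of members varying between libraries was 0 at a difference of at least 2 (1.52% of all genes), 5 with a pseudocount of 0.1 (25.4%), 5 with 0.01 (36.2%) and 5 after rescaling to 1000000 per library (19.2%), where the median of genes averaging 1 RPKM or more shifted by 1.62, 1.67 and 1.72. With 1 library left out, that count was 0 without teratoma 3 (1.59% of all genes), 2 without teratoma 1 (7.51%) and 3 without teratoma 2 (10.2%). Mean receptor shares moved with summed entries to 16.2% for EGFR, 71.6% for ERBB2 and 9.56% for ERBB3, and for ERBB2 to 60.2% with entries averaged and 53.9% with the longest entry. Gene pairs were compared within libraries; between groups of samples, no paired analysis was possible because all libraries belong to 1 group. Depth limits NRG4, EGF and AREG, which rested on 18 to 151 reads.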
